A study of Homo sapiens with 96 samples.

Results

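Expression of 9 oligodendrocyte lineage and myelin genes (OLIG1, OLIG2, NKX2-2, SOX10, PDGFRA, CSPG4, GPR17, MBP and PMP2) was followed in cultures derived from H9 cells, a long-established line of human embryonic stem cells. The genes were picked by symbol through the versioned Ensembl identifiers of the deposited count table, and 9 of 9 were found among its 58434 genes. RNA was sequenced from 96 libraries in 12 groups of 8. The 10 exposed groups were mixed neuron and astrocyte co-cultures on day 10, treated with acrylamide, chlorpyrifos (an organophosphate insecticide), fluoxetine (an antidepressant), methyl mercury or valproic acid (an antiepileptic drug). Each compound was used at IC5, taken here as the concentration giving 5% inhibition, and at IC20/100, taken as the 20% concentration diluted 100-fold. The control group was the same co-culture on day 10 without exposure, and the NPC group was the neural progenitor cells on day 0. Medium was the solvent for acrylamide and valproic acid, whereas chlorpyrifos, fluoxetine and methyl mercury came from dimethyl sulfoxide (DMSO, 0.25% final). Molar concentrations, exposure times and the DMSO content of the controls are not stated by the labels, so compound and vehicle cannot be told apart wherever a DMSO group is set against control. All groups rest on 1 experiment with 1 cell line and were repeated as 8 technical replicates each, and p-values measure only the spread between such libraries.

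Oligodendrocytes are the myelin-forming glia of the brain and spinal cord, and arise from progenitors in which the basic helix-loop-helix factors OLIG1 and OLIG2 act upstream of SOX10 and NKX2-2. Dividing precursors carry PDGFRA, the receptor that receives the mitogen PDGF-A, and CSPG4 (NG2), a surface proteoglycan, while GPR17, a G protein-coupled receptor, marks the step before myelination. MBP compacts the myelin sheath and PMP2 is a fatty acid binding protein of peripheral myelin. None of these genes is limited to this lineage: pericytes express CSPG4, mesenchymal cells PDGFRA, neural crest and Schwann cells SOX10, and ventral progenitors OLIG2.

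CSPG4 and GPR17 were both lower in control cultures than in NPC, and both were lower in DMSO than in medium at IC20/100, so their promoters are shown. RefSeq tables of the GRCh38.p14 assembly held 8 promoter entries for 5 of the 9 genes (CSPG4, GPR17, MBP, NKX2-2 and PDGFRA). Each window runs from 250 bases before to 50 bases after the start that RefSeq gives the gene and is written 5′ to 3′ on the gene's strand, at chr15:75712799-75713098 (minus strand) for CSPG4 and chr2:127645903-127646202 (plus strand) for GPR17. For GPR17 that start lies downstream of the GENCODE start at 127645864, so the printed window lies inside the GENCODE gene and not before it. Capitals mark the E-box CANNTG, the core motif bound by basic helix-loop-helix proteins, whose pattern is its own reverse complement.
CSPG4: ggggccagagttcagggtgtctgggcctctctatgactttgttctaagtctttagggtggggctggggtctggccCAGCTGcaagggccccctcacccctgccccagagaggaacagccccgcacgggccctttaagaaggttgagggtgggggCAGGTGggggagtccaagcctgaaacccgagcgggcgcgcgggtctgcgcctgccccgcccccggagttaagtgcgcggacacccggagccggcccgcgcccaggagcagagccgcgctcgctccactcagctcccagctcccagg
GPR17: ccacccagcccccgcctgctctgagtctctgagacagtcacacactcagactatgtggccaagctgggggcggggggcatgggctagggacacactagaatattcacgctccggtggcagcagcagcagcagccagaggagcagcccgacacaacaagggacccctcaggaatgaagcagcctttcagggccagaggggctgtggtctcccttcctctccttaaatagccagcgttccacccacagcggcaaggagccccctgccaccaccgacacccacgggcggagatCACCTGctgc
The CSPG4 window holds 2 E-boxes and the GPR17 window 1, and 68.7% of 35116 promoters of this length hold at least 1. The SOX motif ACAAAG, searched on both strands, occurred in the CSPG4 window and not in the GPR17 window, and in 16.1% of all promoters. GGGCGG, the SP1 motif, was found once in CSPG4 and at 2 places in GPR17, with 45.0% of all promoters holding it. GC content was 69.3% for CSPG4 and 63.3% for GPR17.

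Libraries held between 9487158 and 29626655 recovered reads, and every one of 6 sequencing runs carried 16 libraries. The normalised counts summed to 20952100 in methyl mercury IC20/100 replicate 8, and to 18108500 to 18986800 in the other day 10 libraries. Without it the number of called genes among the 9 was the same in every comparison but valproic acid IC20/100 against control (2 in place of 0), acrylamide IC5 against IC20/100 (5 in place of 4) and DMSO against medium (5 in place of 4). Values below are normalised read counts, given as mean ± SD over 8 libraries unless stated, with lowest, median and highest in brackets. Differences are on the log2(value + 2) scale from limma, with their standard error, and a gene is called where its p, adjusted by Benjamini-Hochberg across every gene in the fit, is under 0.05. Of the 9 genes, 8 passed the filter on low values in both fits, and NKX2-2 did not. Overlap of libraries between groups is given for the 9 genes alone. The share of all genes without overlap was not counted, so a lack of overlap may be common among genes.

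Apart from OLIG1 in NPC, which stood above 49.1% of protein-coding genes, the 9 genes were expressed at low levels in control and NPC. Per kilobase of exon, where the median of 15229 protein-coding genes was 92.7 in control and 100 in NPC, PMP2 had the highest level in control (16.1) and OLIG1 the highest in NPC (97.0). OLIG2 stood at 10.1 in control and 29.9 in NPC, GPR17 at 6.50 in control and 26.3 in NPC, and SOX10 at 3.77 in control and 11.9 in NPC. MBP, at 1.40 in both, stood above 2.4% of those genes in control and 2.88% in NPC. Among defining genes of mature oligodendrocytes, OPALIN, an oligodendrocyte membrane protein, was listed at 0 in control and averaged 1.14 in NPC, and MAG, a glycoprotein facing the axon, was listed at 0 in control and averaged 0.096 in NPC. MOG, on the outer face of myelin, averaged 5.01 in control and 5.13 in NPC, and MOBP, of compact myelin, 15.1 in control and 33.8 in NPC. The 9 genes are therefore called by name below, and no oligodendrocytes are named in these cultures. In bulk RNA, fewer cells of a type and less RNA per cell cannot be told apart.

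**Figure D1:**
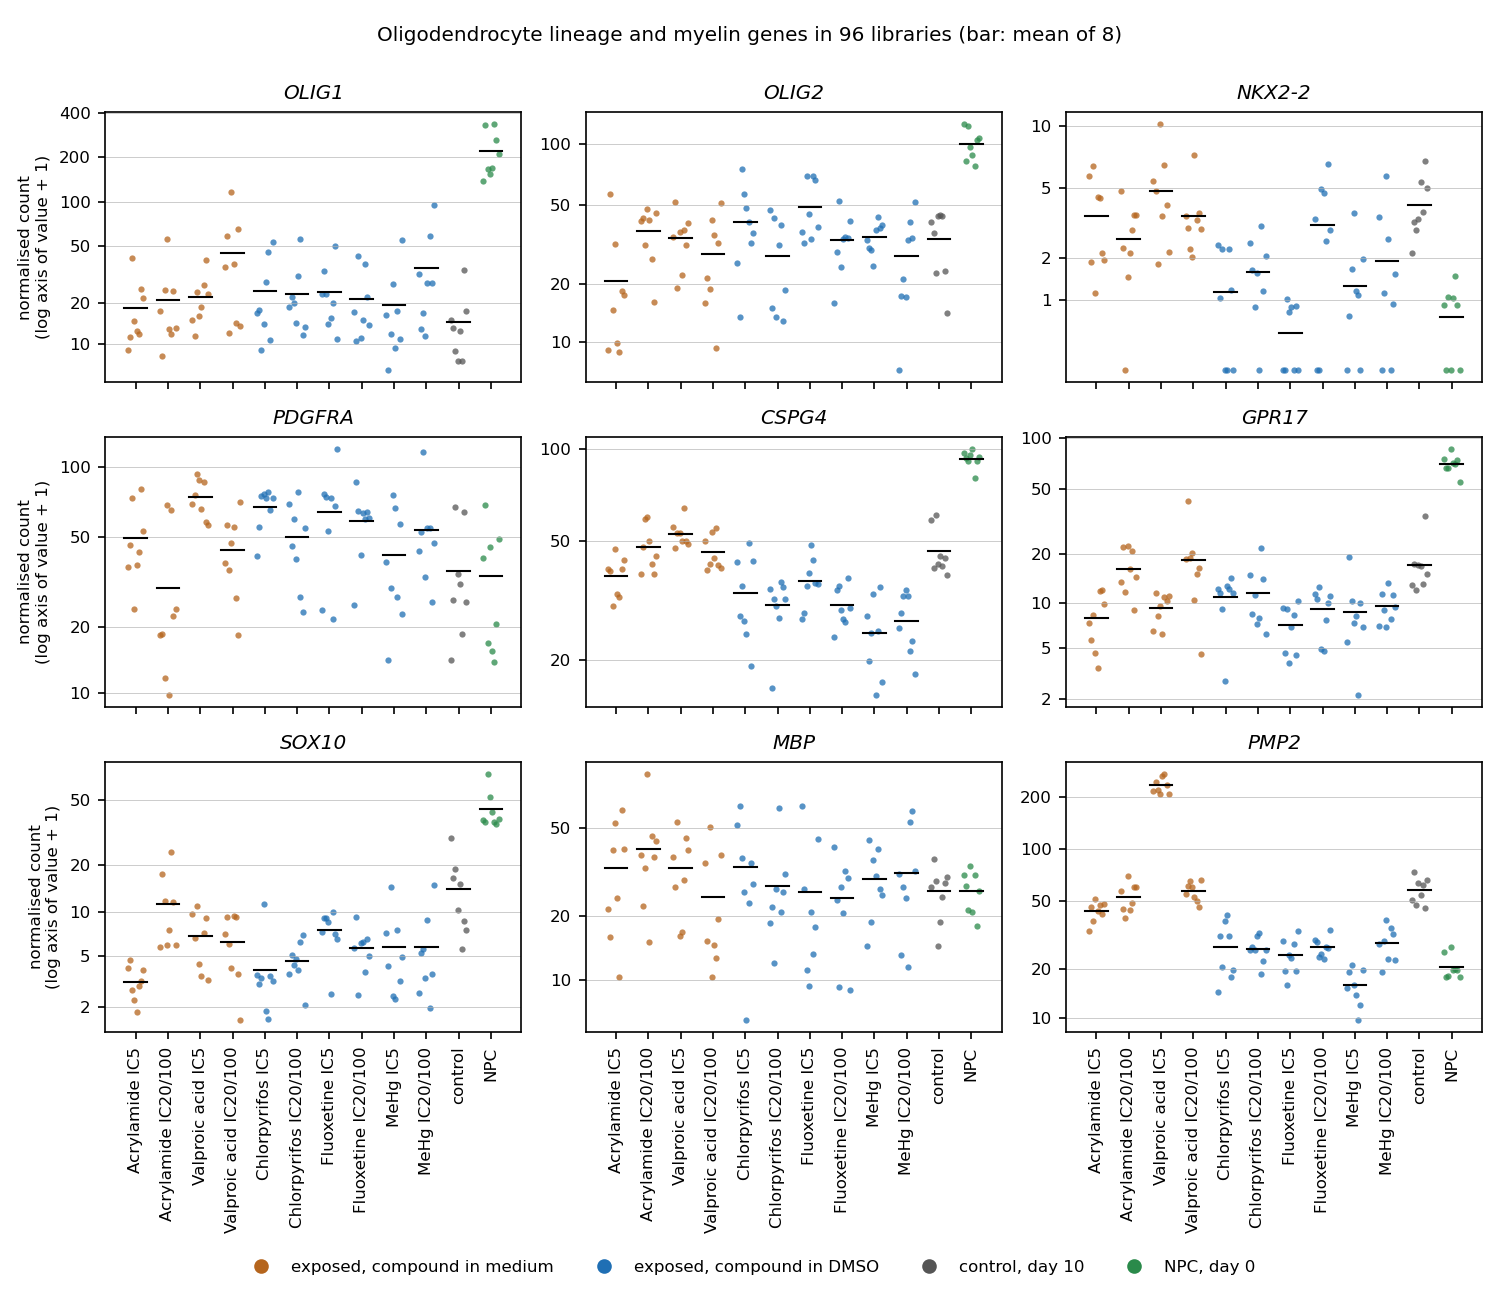
Normalised count of each of the 9 genes in every library (points, logarithmic axis of value + 1) by group, with the group mean of 8 as a bar. The 8 NPC libraries lie above all others for OLIG1, OLIG2, CSPG4, SOX10 and GPR17, valproic acid IC5 stands highest for PMP2, and no group is set apart for MBP.

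Across the 12 groups the genes took different orders of level. OLIG1, OLIG2, CSPG4, SOX10 and GPR17 were each highest in NPC, by more than the larger SD of NPC and the next group. Below NPC, the neighbouring group means of OLIG1, OLIG2, SOX10 and GPR17 were all closer than their spread. For CSPG4 there was a further step, with valproic acid IC20/100 at 45.8 ± 6.07 above acrylamide IC5 at 38.3 ± 5.70, and the lowest mean in methyl mercury IC5. PMP2 had 3 steps beyond the spread, with valproic acid IC5 on top at 232 ± 24.7, acrylamide IC5 at 44.0 ± 5.68 above methyl mercury IC20/100 at 28.6 ± 6.76, and NPC at 20.7 ± 3.46 above methyl mercury IC5 at 15.9 ± 3.98. PDGFRA means ran between 29.9 in acrylamide IC20/100 and 74.2 in valproic acid IC5, and MBP means between 24.1 in fluoxetine IC20/100 and 40.1 in acrylamide IC20/100, with no neighbours of either gene apart by more than their spread. NKX2-2 means ran between 0.442 in fluoxetine IC5 and 4.84 in valproic acid IC5, again with no neighbours apart by more than their spread.

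Day 10 controls were set against NPC to see how the lineage genes stood after differentiation. Of the 8 genes tested, 5 were lower and 1 was higher in control than in NPC, in a comparison where 70.7% of 18063 genes were called (33.9% higher and 36.8% lower). The median difference of the 8 was -1.25, against -0.015 for all genes tested. For each of these 6 genes the difference had the same sign in 6 of 6 sequencing runs. The 6 calls held when any of the 16 libraries was left out.

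The transcription factors OLIG1, OLIG2 and SOX10 fell. OLIG1 had 14.6 ± 8.67 in control (7.47, 12.8, 34.0) and 221 ± 79.0 in NPC (139, 189, 335.5), a difference of -3.88 ± 0.31 (adjusted p = 2.58e-07). OLIG2 had 33.8 ± 11.9 in control (14.2, 38.7, 44.5) and 100.3 ± 17.5 in NPC (77.6, 100.5, 125), a difference of -1.501 ± 0.22 (adjusted p = 6.26e-05). All 8 control libraries lay below all 8 NPC libraries for both genes, which lie near each other on chromosome 21 (OLIG2 at 33025845 to 33029196 and OLIG1 at 33070144 to 33072420, GRCh38, plus strand). SOX10, the factor that activates myelin genes, had 14.0 ± 7.74 in control (5.60, 12.7, 29.3) and 44.0 ± 12.6 in NPC (35.8, 38.1, 72.2), a difference of -1.76 ± 0.25 (adjusted p = 5.41e-05), again without overlap.

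NKX2-2, a homeodomain factor of ventral progenitors and of oligodendrocyte maturation, moved the other way at the limit of detection. It had 2 to 7 reads per control library, 36 in all, and 0 to 2 reads per NPC library, 6 in all. The groups did not overlap in normalised value, and an exact two-sided permutation test over 12870 splits gave p = 0.0001554, the smallest it can give (adjusted over the 11 such tests of this gene, p = 0.000855). With so few reads, counting error is large.

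Among the surface receptors, GPR17 fell to 17.3 ± 7.07 in control (11.9, 16.0, 34.0), against 70.2 ± 8.97 in NPC (54.5, 70.2, 85.8), a difference of -2.01 ± 0.18 (adjusted p = 7.12e-07). CSPG4 fell to 46.2 ± 8.52 in control (38.5, 42.9, 60.7), against 92.7 ± 5.92 in NPC (79.9, 93.5, 99.7), a difference of -0.99 ± 0.09 (adjusted p = 1.29e-06). Neither gene's groups overlapped. PDGFRA gave 35.3 ± 20.0 in control (14.1, 28.7, 67.7) and 33.8 ± 20.1 in NPC (13.8, 30.5, 68.7), a difference of 0.18 ± 0.43 that did not pass the test (adjusted p = 0.723), and its groups overlapped across nearly their whole range. A read-through gene on the same strand overlaps PDGFRA (4: 54229097 to 54298247), and the split of reads between them is uncertain; the overlapping gene averaged 0.851 in control and 3.36 in NPC. Reads of GPR17 (2: 127645864 to 127652639, plus strand) and SOX10 (22: 37970686 to 37987422, minus strand) may include some from LIMS2 and POLR2F, which overlap them on the opposite strand: the kit is stranded, but the strand setting of the counting is not stated.

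Of the 2 myelin protein genes, PMP2 (8: 81440326 to 81447523, minus strand) rose and MBP did not pass the test. PMP2 had 58.1 ± 9.85 in control (45.7, 58.4, 73.4) and 20.7 ± 3.46 in NPC (17.9, 19.7, 27.0), a difference of 1.39 ± 0.10 (adjusted p = 1.22e-07), with every control library above every NPC library. MBP had 26.0 ± 6.81 in control (14.5, 27.7, 36.2) and 26.0 ± 5.62 in NPC (17.9, 26.6, 33.7), a difference of -0.09 ± 0.17 (adjusted p = 0.645). The MBP gene (18: 76978827 to 77133683, minus strand) also makes the golli transcripts of neurons and immune cells, which a gene-level count cannot separate from those of myelin.

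**Figure D2:**
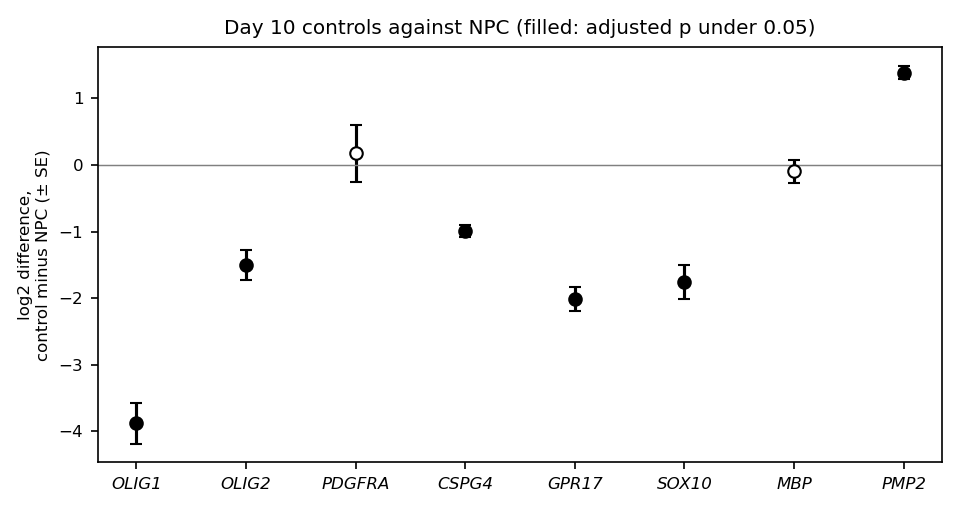
Log2 difference of control minus NPC for the 8 genes tested, with standard error. Filled points passed an adjusted p under 0.05, and PMP2 alone of these 8 lies above 0 among them, while OLIG1 has the largest difference at -3.88.

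Other genes of the lineage were counted from lists beside the 9. Of 14 other precursor genes, 12 were tested, and 5 were higher and 5 lower in control than in NPC, with a median difference of -0.06, where 33.9% of all genes tested were higher and 36.8% lower. LUZP2, a leucine zipper protein, was higher (315 ± 51.1 in control and 124 ± 26.2 in NPC, a difference of 1.38). PCDH15, a protocadherin of precursors, was lower (62.4 ± 20.0 in control and 798 ± 42.3 in NPC, -3.72), and so was SOX6 (74.4 ± 20.0 in control and 154 ± 48.5 in NPC, -0.93).

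In the same comparison 33.9% of all genes tested were higher in control and 36.8% lower. Of 20 other myelin and mature oligodendrocyte genes, 12 were tested, and 3 were higher and 8 lower in control, with a median of -0.68. Among those that rose were the proteolipid MAL (112 ± 10.9 in control and 17.1 ± 5.54 in NPC, 2.66) and the iron carrier transferrin, TF (210.1 ± 39.7 in control and 52.2 ± 16.4 in NPC, 1.94). Among those that fell were PLLP, a myelin proteolipid (30.6 ± 10.4 in control and 198 ± 32.3 in NPC, -2.66), UGT8, which makes galactolipids (38.6 ± 11.6 in control and 118 ± 22.5 in NPC, -1.63), and MYRF, the myelin regulatory factor (152 ± 33.0 in control and 400.1 ± 57.7 in NPC, -1.35). All 5 genes of a list of the 4 PDGF ligands and PDGFRB fell, and PDGFRA itself did not pass the test. The differences were -3.15 for PDGFD, -2.28 for PDGFC, -1.03 for PDGFRB, -0.80 for PDGFB and -0.51 for PDGFA, the ligand that PDGFRA is best known for. In the hedgehog list, 5 of 9 genes tested fell and 0 rose. Of 13 inhibitors and timers of the lineage, 6 rose and 3 fell, among them the Notch targets HES5 (1662 ± 78.8 in control and 481 ± 30.6 in NPC, 1.76) and HES1 (475 ± 51.1 in control and 830.0 ± 52.8 in NPC, -0.77).

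Markers of other cells that hold these genes also differed between control and NPC, where 33.9% of all genes tested were higher and 36.8% lower. The summed level of 12 mesenchymal and pericyte genes, which share CSPG4 and PDGFRA, was 2095 to 2533 in control libraries and 4032 to 5168 in NPC libraries, with 1 higher and 6 lower of 9 tested. The sum of 12 Schwann cell and neural crest genes, cells that share SOX10 and PMP2, was 8704 to 9452 in control and 4317 to 5283 in NPC, with 3 higher and 5 lower of 10 tested. In control its largest parts were TFAP2B (5527 in control and 2869 in NPC) and NGFR (1980 in control and 359 in NPC), both higher. The 5 lower genes were EGR2 (5.75 in control and 133 in NPC), PMP22 (45.1 and 110), S100B (19.4 and 74.4), SNAI2 (11.4 and 49.8) and CDH19. CDH19, a cadherin of Schwann cell precursors, was near 0 in control (0.086) against 19.1 in NPC. The motor and ventral neuron list, which shares OLIG2, had 0 higher and 3 lower of 4 tested, with sums of 620.5 to 827 in control and 1153 to 1836 in NPC. Sums of 8 neuron markers were 82320 to 88800 in control and 61390 to 67580 in NPC, and those of 7 astrocyte markers 4436 to 5724 in control and 3827 to 5503 in NPC. Microglia markers were near 0, with sums of 0 to 7.53 in control and 2.00 to 18.9 in NPC and P2RY12 at 0 in both. The part of these cell types in the results for the 9 genes was not tested.

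The 10 exposed groups were compared with the same 8 control libraries, so these comparisons are not independent. Acrylamide IC5 had 4 of the 8 tested genes lower and 0 higher, where 42% of 20136 genes were called (20.5% higher and 21.5% lower). Acrylamide IC20/100 had 0 called, where 0.0596% were called (0.0497% higher and 0.00993% lower; 0 of 18046 genes with only the 16 libraries compared). Chlorpyrifos IC5 had 1 higher and 3 lower, where 19.7% were called (9.92% higher and 9.75% lower), and chlorpyrifos IC20/100 had 3 lower, where 14.1% were called (7.06% higher and 7.02% lower). For fluoxetine, 2 genes were lower at IC5, where 11.4% were called (5.47% higher and 5.94% lower), and 4 at IC20/100, where 14.4% were called (6.88% higher and 7.54% lower). Methyl mercury had 4 genes lower at IC5, where 10.9% were called (4.85% higher and 6.06% lower), and 3 at IC20/100, where 15.8% were called (8.21% higher and 7.6% lower; 351 of 18047 genes with only the 16 libraries compared). Valproic acid IC5 had 2 higher and 2 lower, where 26.9% were called (14.5% higher and 12.4% lower), and valproic acid IC20/100 had 0, where 2.54% were called (1.17% higher and 1.37% lower; 22 of 18126 genes with only the 16 libraries compared). The median difference of the 8 genes was lowest in methyl mercury IC20/100 (-0.54) and highest in valproic acid IC5 (0.23), while the medians over all genes tested lay between -0.008 and 0.0063.

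PMP2 was called in the most exposures, lower in 7 and higher in 1 of 10. Methyl mercury IC5 gave 15.9 ± 3.98 (9.78, 15.7, 21.3), against 58.1 ± 9.85 in control, a difference of -1.77 ± 0.13 (adjusted p = 4.03e-18). Means in the other DMSO groups were 24.2 ± 5.89 in fluoxetine IC5 (-1.25), 26.2 ± 4.44 in chlorpyrifos IC20/100 (-1.10), 26.9 ± 10.1 in chlorpyrifos IC5 (-1.12), 27.1 ± 3.63 in fluoxetine IC20/100 (-1.04) and 28.6 ± 6.76 in methyl mercury IC20/100 (-1.03), with adjusted p-values between 5.49e-12 and 6.69e-09. In all 6 DMSO groups every library lay below every control library, and the difference was negative in 6 of 6 runs. Acrylamide IC5 gave 44.0 ± 5.68, a difference of -0.39 ± 0.13 (adjusted p = 0.0127), with 4 of its 8 libraries below all controls. Valproic acid IC5 went the other way, at 232 ± 24.7 (206.5, 226, 270.2), a difference of 1.97 ± 0.13 (adjusted p = 2.25e-21) with every library above every control. The remaining groups were not called, with 53.3 ± 10.3 in acrylamide IC20/100 (adjusted p = 0.907) and 57.3 ± 7.30 in valproic acid IC20/100 (adjusted p = 0.965).

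SOX10 was lower in 7 of 10 exposures and higher in 0. Means of the 7 called groups lay between 3.23 and 6.90, below the filter value of 10. Those of control (14.0) and acrylamide IC20/100 (11.3) lay above it. When only the libraries compared were fitted, SOX10 did not pass the filter, so these calls could not be checked in that way. Its lowest level was in acrylamide IC5, at 3.23 ± 0.979 (1.79, 3.12, 4.71), against 14.0 ± 7.74 in control (5.60, 12.7, 29.3), a difference of -1.49 ± 0.28 (adjusted p = 8.67e-06) without overlap. Chlorpyrifos gave 3.97 ± 3.09 at IC5 (-1.40 ± 0.28, adjusted p = 8.07e-05) and 4.65 ± 1.54 at IC20/100 (-1.15 ± 0.28, adjusted p = 0.00201). The differences were -0.97 in fluoxetine IC20/100 (adjusted p = 0.0107), -1.02 in methyl mercury IC5 (adjusted p = 0.00903) and -1.02 in methyl mercury IC20/100 (adjusted p = 0.00724), all 3 with libraries that overlapped the controls. In valproic acid IC5 the difference of -0.78 (adjusted p = 0.0281) lost its call without any of 7 libraries (control replicates 1, 2, 3 and 5, and valproic acid IC5 replicates 4, 5 and 8), with an adjusted p of up to 0.0978, and with no filter on low values (adjusted p = 0.0539). Beside SOX10 in acrylamide IC5, 5 of 10 tested Schwann cell and neural crest genes were higher and 3 lower (20.5% and 21.5% of all genes), with sums over the 12 genes of 7938 to 8962 in acrylamide IC5 and 8704 to 9452 in control. EGR2, which with SOX10 drives myelin genes in Schwann cells, had 32.3 ± 7.42 in acrylamide IC5 and 5.75 ± 5.48 in control (2.38). Their part in the result for SOX10 was not tested. At these levels a library held 1 to 27 reads of SOX10 on day 10, so counting error is large.

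GPR17 was lower in 5 of 10 exposures. Means of the 5 called groups lay between 7.08 and 9.27, below the filter value of 10, while every control library lay above it. Libraries of the called groups held 2 to 27 reads of GPR17, so counting error is large. Fluoxetine IC5 gave 7.08 ± 2.49 (3.90, 7.62, 10.3), against 17.3 ± 7.07 in control (11.9, 16.0, 34.0), a difference of -1.06 ± 0.26 (adjusted p = 0.00224) without overlap. Acrylamide IC5 gave 7.89 ± 3.19 (-0.97 ± 0.26, adjusted p = 0.00137), where the highest library reached 12.0 and the lowest control 11.9. Methyl mercury IC5 gave 8.67 ± 4.95 (-0.92, adjusted p = 0.0105), a call lost without methyl mercury IC5 replicate 6 (adjusted p = 0.0661) and with only the 16 libraries compared (adjusted p = 0.0514). Fluoxetine IC20/100 gave 9.10 ± 2.99 (-0.79, adjusted p = 0.0248), which was lost without control replicate 7 or without fluoxetine IC20/100 replicate 4 or 5 (adjusted p of up to 0.0816) and with no filter on low values (adjusted p = 0.0517). Valproic acid IC5 gave 9.27 ± 2.06 (-0.74, adjusted p = 0.0226) and did not overlap the controls, but the call was lost without control replicate 7 (adjusted p = 0.079). That control library held 34.0 of GPR17, and the other 7 controls 11.9 to 17.5.

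CSPG4 was lower in 5 of the 6 DMSO groups and called in 0 of the 4 groups of acrylamide and valproic acid. Methyl mercury IC5 gave 24.8 ± 7.26 (15.2, 24.8, 35.2), against 46.2 ± 8.52 in control (38.5, 42.9, 60.7), a difference of -0.88 ± 0.13 (adjusted p = 7.6e-07). Methyl mercury IC20/100 gave 27.1 ± 5.97 (-0.72, adjusted p = 4.38e-05), chlorpyrifos IC20/100 30.6 ± 6.52 (-0.58, adjusted p = 0.00102) and fluoxetine IC20/100 30.6 ± 4.68 (-0.56, adjusted p = 0.00162). None of these 4 groups overlapped the controls. Chlorpyrifos IC5 gave 33.6 ± 10.5 (-0.48, adjusted p = 0.00563), with overlap, a call lost when only the 16 libraries compared were fitted (adjusted p = 0.0919), and fluoxetine IC5 36.8 ± 6.92 (-0.30), which was not called (adjusted p = 0.155). Beside CSPG4, the pericyte marker ACTA2, smooth muscle actin, was lower in the same 5 groups, and averaged 78.6 in methyl mercury IC5, 73.4 in methyl mercury IC20/100, 65.9 in chlorpyrifos IC20/100, 70.2 in fluoxetine IC20/100 and 62.5 in chlorpyrifos IC5, against 122 in control. The 12 mesenchymal and pericyte genes summed to 1591 to 2119 in methyl mercury IC5 and 1444 to 1896 in chlorpyrifos IC20/100, against 2095 to 2533 in control, with 0 higher and 4 lower of 9 tested in each. Among all genes 4.85% were higher and 6.06% lower in methyl mercury IC5, and 7.06% higher and 7.02% lower in chlorpyrifos IC20/100. The part of the mesenchymal and pericyte genes in the result for CSPG4 was not tested.

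PDGFRA was higher in 2 exposures. Valproic acid IC5 gave 74.2 ± 14.1 (56.3, 72.7, 93.4), against 35.3 ± 20.0 in control (14.1, 28.7, 67.7), a difference of 1.18 ± 0.33 (adjusted p = 0.0036), with 5 of 8 libraries above all controls. Chlorpyrifos IC5 gave 67.5 ± 13.0 (41.4, 73.8, 78.1), a difference of 1.04 ± 0.33 (adjusted p = 0.0151) that lost its call without control replicate 1 (adjusted p = 0.0539). The read-through gene that overlaps PDGFRA averaged 3.25 in valproic acid IC5 and 5.48 in chlorpyrifos IC5, against 0.851 in control. It averaged 0 to 4.83 in the other exposures, and its part in the 2 calls was not tested. In the other exposures PDGFRA ranged between 29.9 ± 23.5 in acrylamide IC20/100 and 64.0 ± 31.8 in fluoxetine IC5 and was not called. Its ligand genes gave 1 call each way in valproic acid IC5, with PDGFD at 105 in valproic acid IC5 and 50.2 in control (1.04) and PDGFA at 15.6 in valproic acid IC5 and 23.8 in control (-0.59).

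The other transcription factors gave few calls. OLIG2 was lower in acrylamide IC5, at 20.9 ± 16.3 (8.90, 16.2, 56.5), against 33.8 ± 11.9 in control (14.2, 38.7, 44.5), a difference of -0.86 ± 0.31 (adjusted p = 0.0197). The groups overlapped, and the call was lost without acrylamide IC5 replicate 1 or 6 (adjusted p of up to 0.0616). OLIG1 was called in 0 exposures, although its mean was above that of control (14.6 ± 8.67) in every exposed group. The largest was 44.3 ± 35.7 in valproic acid IC20/100 (12.2, 36.7, 117), a difference of 1.28 ± 0.40 (adjusted p = 0.0634), which edgeR (adjusted p = 0.0354) and DESeq2 (adjusted p = 0.0121) on recovered reads called, and which passed without methyl mercury IC20/100 replicate 8 (adjusted p = 0.0384). Of its 8 libraries, 5 lay above all controls. MBP was called in 0 exposures, with means of 24.1 to 40.1, and adjusted p-values of at least 0.648.

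NKX2-2 had 36 reads over the 8 control libraries. In exposed groups it had 4 reads in fluoxetine IC5 (exact permutation p = 0.0001554, the smallest possible, adjusted p = 0.000855), 9 in chlorpyrifos IC5 (exact p = 0.0006216, adjusted p = 0.00228), 10 in methyl mercury IC5 (exact p = 0.001243, adjusted p = 0.00273), 13 in chlorpyrifos IC20/100 (exact p = 0.001243, adjusted p = 0.00273) and 16 in methyl mercury IC20/100 (exact p = 0.01803, adjusted p = 0.0331). Fluoxetine IC5 did not overlap the controls. The other 5 groups held 20 to 45 reads, with exact p-values of 0.06853 to 0.6365. Adjustment was over the 11 tests of this gene.

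**Figure D3:**
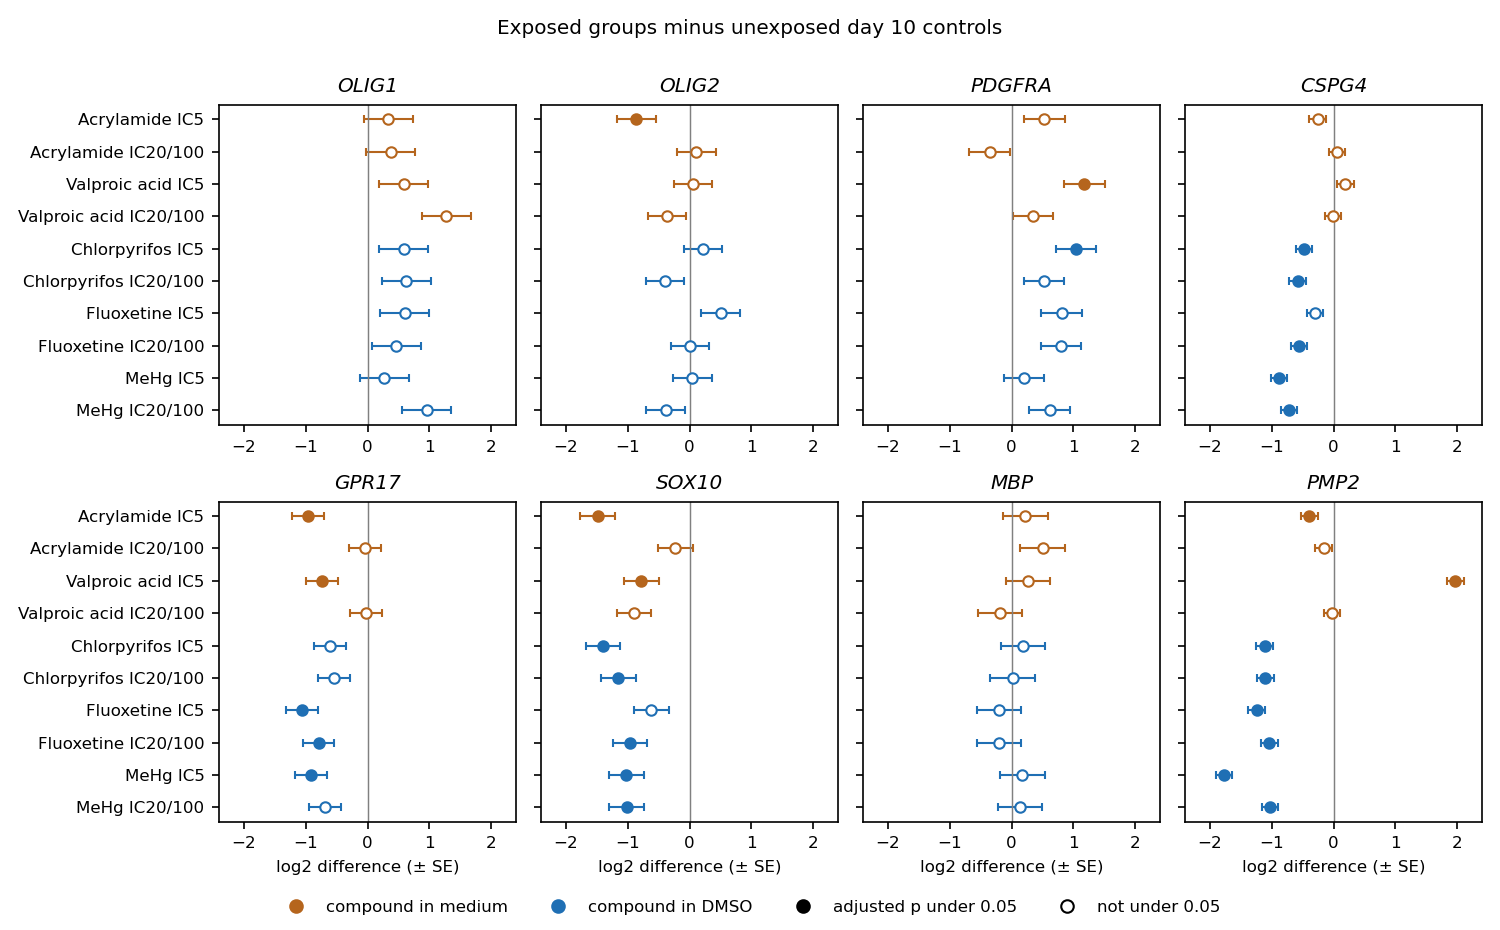
Log2 difference (± SE) of each exposed group minus control for the 8 genes tested, with compounds in medium in brown and compounds in DMSO in blue. Filled points passed an adjusted p under 0.05: PMP2 is lower in all 6 DMSO groups and higher at 1.97 in valproic acid IC5, and OLIG1 and MBP have no filled point.

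Other genes of the lineage were counted in the exposures. SOX8, which shares targets with SOX10, was 371 ± 34.7 in acrylamide IC5 and 725 ± 86.9 in control (-0.95, adjusted p = 3.54e-13), and also lower in 6 other exposures. MYRF was lower in both chlorpyrifos groups, both methyl mercury groups and fluoxetine IC5, most in methyl mercury IC5 (85.4 ± 15.6, against 152 ± 33.0 in control, -0.84), and higher in valproic acid IC5 (192 ± 21.7, 0.36). UGT8 differed in 2 groups, with 113 ± 27.1 in valproic acid IC5 and 38.6 ± 11.6 in control (1.52, adjusted p = 3.71e-09), and 13.0 ± 6.66 in acrylamide IC5 (-1.47, adjusted p = 4.44e-09). The list of 12 tested myelin genes had 5 higher and 1 lower in valproic acid IC5, where 14.5% of all genes were higher and 12.4% lower. It had 3 higher and 3 lower in acrylamide IC5, where 20.5% of all genes were higher and 21.5% lower, so that the share called was close to the 42% of all genes. In the hedgehog and ventral patterning list, 9 of 11 tested genes were higher and 0 lower in acrylamide IC5 (median 0.59, against -0.008 for all genes, of which 20.5% were higher and 21.5% lower). OLIG2 was called lower in that group. GLI1, a hedgehog target, had 64.5 ± 74.0 in acrylamide IC5 and 6.79 ± 8.64 in control (2.67 ± 0.54, adjusted p = 2.57e-05), and the co-receptor CDON 834 ± 92.3 in acrylamide IC5 and 461 ± 39.0 in control (0.84).

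The 2 concentrations of each compound were compared directly. For acrylamide, 4 of the 8 genes differed between IC5 and IC20/100, where 41.1% of all genes were called (20% higher and 21.1% lower). SOX10 had 3.23 ± 0.979 at IC5 and 11.3 ± 6.50 at IC20/100 (-1.26 ± 0.28, adjusted p = 0.00015), without overlap. GPR17 had 7.89 ± 3.19 at IC5 and 16.3 ± 5.02 at IC20/100 (-0.92 ± 0.26, adjusted p = 0.00243), and OLIG2 20.9 ± 16.3 at IC5 and 36.9 ± 10.97 at IC20/100 (-0.97 ± 0.31, adjusted p = 0.00835). PDGFRA was higher at IC5, with 49.4 ± 19.1 against 29.9 ± 23.5 at IC20/100 (0.88 ± 0.33, adjusted p = 0.0245), a call lost without acrylamide IC20/100 replicate 3 or 5 or acrylamide IC5 replicate 3 or 7 (adjusted p of up to 0.101), and by edgeR (adjusted p = 0.0878), by DESeq2 (adjusted p = 0.0738) and with only these 16 libraries (adjusted p = 0.0911).

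For valproic acid, 2 of the 8 genes differed, where 17% of all genes were called (9.73% higher and 7.27% lower). PMP2 had 232 ± 24.7 at IC5 and 57.3 ± 7.30 at IC20/100 (1.99 ± 0.13, adjusted p = 3.84e-21), without overlap. GPR17 had 9.27 ± 2.06 at IC5 and 18.4 ± 10.9 at IC20/100 (-0.71 ± 0.26, adjusted p = 0.0458), which was lost without any of 11 of the 16 libraries (valproic acid IC20/100 replicates 1 to 4, 6 and 7, and valproic acid IC5 replicates 1, 3, 4, 5 and 7; adjusted p of up to 0.179). For methyl mercury, 1 of the 8 genes differed, where 5.17% were called (2.58% higher and 2.6% lower). PMP2 was lower at IC5 (15.9 ± 3.98) than at IC20/100 (28.6 ± 6.76), by -0.75 ± 0.13 (adjusted p = 5.91e-05). That difference was not called when the fit held these 16 libraries alone (-0.79, adjusted p = 0.143), and then 27 of 17947 genes were called in all, against 1042 of 20136 in the fit of all day 10 libraries. Chlorpyrifos and fluoxetine each had 0 of the 8 genes called. Among all genes 0.0497% were called for chlorpyrifos (0.0397% higher and 0.00993% lower) and 3.76% for fluoxetine (2.3% higher and 1.46% lower). For PMP2 the difference between IC5 and IC20/100 was -0.01 ± 0.13 for chlorpyrifos and -0.21 ± 0.13 for fluoxetine.

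At IC20/100 the groups could be compared by solvent without the controls, a comparison added after the levels had been seen. The 24 libraries of chlorpyrifos, fluoxetine and methyl mercury in DMSO were set against the 16 of acrylamide and valproic acid in medium, and 17.7% of genes were called (8.62% higher and 9.05% lower). Of the 8 genes, 1 was higher and 3 were lower in DMSO, with a median of -0.33, against 0.0037 for all genes tested. Solvent and compounds cannot be told apart in this comparison.

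PMP2 averaged 27.3 ± 4.99 in the 24 DMSO libraries and 55.3 ± 8.86 in the 16 medium libraries, a difference of -0.96 ± 0.08 (adjusted p = 1.86e-15). The DMSO libraries ran between 18.8 and 38.9 and the medium libraries between 39.9 and 70.2. CSPG4 averaged 29.4 ± 5.77 in DMSO and 46.6 ± 7.04 in medium, a difference of -0.65 ± 0.09 (adjusted p = 8.9e-09), with 16.0 to 37.6 in DMSO and 38.7 to 59.7 in medium. For both genes every DMSO library lay below every medium library, and the difference was negative in 6 of 6 runs. GPR17 averaged 10.0 ± 3.73 in DMSO and 17.3 ± 8.26 in medium (-0.64 ± 0.17, adjusted p = 0.0031), with overlap. PDGFRA was the gene higher in DMSO, at 53.9 ± 21.5 against 36.8 ± 21.1 in medium (0.65 ± 0.21, adjusted p = 0.0216), and this call was lost without acrylamide IC20/100 replicate 3 or 5 or valproic acid IC20/100 replicate 7 (adjusted p of up to 0.0572), and by edgeR (adjusted p = 0.0576). SOX10 gave 5.37 ± 2.78 in DMSO and 8.79 ± 5.52 in medium (-0.48 ± 0.18), which missed the threshold (adjusted p = 0.0514); without methyl mercury IC20/100 replicate 8 it passed, at -0.55 (adjusted p = 0.0154).

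**Figure D4:**
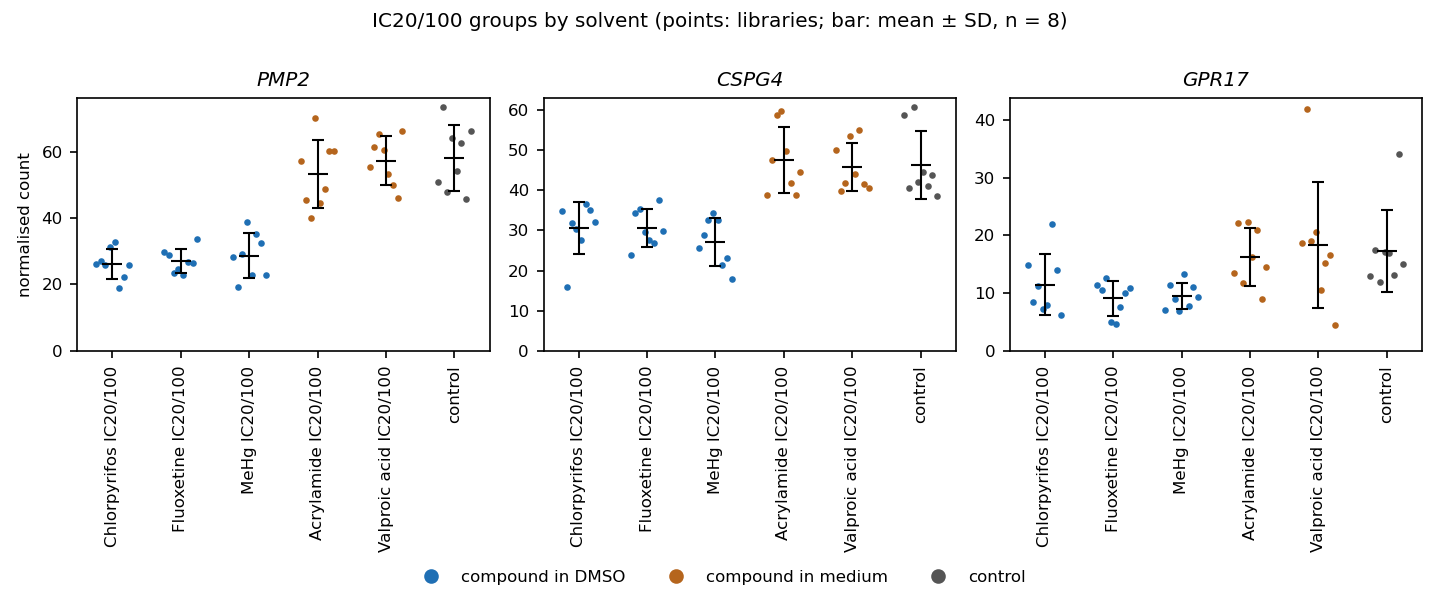
Normalised counts of PMP2, CSPG4 and GPR17 in the IC20/100 groups, with DMSO groups in blue, medium groups in brown and control in grey; points are libraries and bars mean ± SD (n = 8). For PMP2 and CSPG4 all 24 DMSO libraries lie below all 16 medium libraries, and for GPR17 the groups overlap.

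Relatives of PMP2 that carry lipids or retinoids were counted beside it. Of 6 tested in this comparison, 3 were lower and 1 higher in DMSO, where 9.05% of all genes were lower and 8.62% higher. CRABP2, a retinoic acid carrier, had 285 ± 55.3 in DMSO and 588 ± 79.4 in medium (-1.06 ± 0.06, adjusted p = 2.96e-26), and FABP7, the brain fatty acid binding protein of progenitors, 2133 ± 453 in DMSO and 3262 ± 276.5 in medium (-0.63 ± 0.04, adjusted p = 1.01e-20). CRABP2 followed PMP2 in other comparisons as well, at 583 ± 62.3 in control and 98.2 ± 22.9 in NPC (2.53) and at 913 ± 84.4 in valproic acid IC5 and 583 ± 62.3 in control (0.65, adjusted p = 1.26e-08). FABP7 did not do so between control and NPC, with 3328 ± 93.0 in control and 19194 ± 990 in NPC (-2.53). Of 9 mesenchymal and pericyte genes tested, 6 were lower and 0 higher in DMSO than in medium, among them ACTA2 (69.8 ± 13.4 in DMSO and 111 ± 20.6 in medium, -0.66), and the sums over 12 such genes were 1444 to 2215 in DMSO libraries and 2056 to 2538 in medium libraries. Their part in the results for PMP2 and CSPG4 was not tested.

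The genes differed in how far libraries of a group scattered. Chi-square per degree of freedom of the recovered reads within groups, which is 1 for counting error alone, had a median of 2.32 over 3347 genes with 20 to 80 mean reads. It was 13.2 for OLIG1, 9.63 for PDGFRA, 7.24 for MBP and 5.72 for OLIG2, above 89.2%, 85.2%, 80% and 75.6% of those genes. CSPG4 at 1.31 and PMP2 at 1.48 lay close to counting error. GPR17 (1.90), SOX10 (2.06) and NKX2-2 (1.02) had 17.5, 10.6 and 2.51 mean reads, all below the 20 to 80 of those genes. The same difference in level is thus measured with a larger error for OLIG1, PDGFRA and MBP than for CSPG4 and PMP2. The residual SD on the log2 scale at day 10 was 0.80 for OLIG1, 0.66 for PDGFRA and 0.73 for MBP. It was 0.265 for CSPG4 and 0.26 for PMP2, and 0.51 for GPR17 and 0.56 for SOX10.

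**Figure D5:**
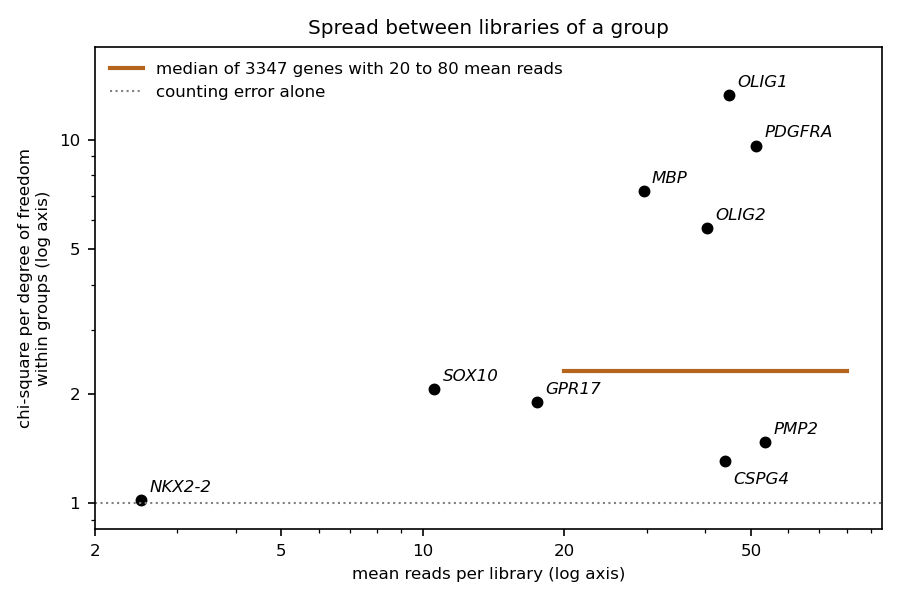
Spread between libraries of a group (chi-square per degree of freedom) against mean reads per library for the 9 genes, both on logarithmic axes. The dotted line is counting error alone and the brown line the median of 3347 genes with 20 to 80 mean reads. NKX2-2, SOX10 and GPR17 have fewer mean reads than those genes. OLIG1, PDGFRA, MBP and OLIG2 lie above the brown line at 5.72 to 13.2, and CSPG4 and PMP2 below it.

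The day 10 group means of each gene were correlated with those of 15114 other protein-coding genes over the 11 day 10 groups, as a description. The genes closest to PMP2 were SST (somatostatin, r = 0.977), GRIK1 (a kainate receptor subunit, 0.975) and SH2B3 (0.970). Closest to CSPG4 were AEBP1 (0.946), KIF26A (0.938) and PAPPA (0.932), and closest to GPR17 PRDM16 (0.961), GRM4 (0.941) and VSTM2A (0.930). SOX10 was followed by IFI27L2 (0.943), PTPRM (0.941) and SPATA18 (0.923), PDGFRA by SAMD12 (0.942), SEMA3A (0.926) and SLC38A10 (0.919), and OLIG2 by SLC2A3 (0.922), PCDHGA9 (0.912) and DPAGT1 (0.899). The highest values were lower for OLIG1 (AQP3, 0.858) and MBP (NIM1K, 0.849). Between the 8 genes themselves, the highest r was 0.851 for CSPG4 with PMP2, followed by 0.589 for SOX10 with GPR17, and the lowest was -0.615 for PDGFRA with GPR17. OLIG1 with OLIG2 gave -0.143. These values rest on 11 means that share solvents and runs.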

How the data were processed

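RNA was sequenced from 96 libraries of H9-derived cultures as poly(A) mRNA with a stranded kit, per the labels' protocols. The submitters' processing notes name bcl2fastq, FastQC 0.11.8, MultiQC 1.0, Salmon 1.3.0, DESeq2 1.30.0 and the build GRCh38, without an annotation release. As deposited, the table is a signal: gene counts that the authors divided by 1 size factor per library. From the values, 100% of positive entries were whole multiples of a library's smallest step within 0.001 read, so reads were recovered for the count tests.

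Libraries were grouped by their labels. limma 3.58.1 (R 4.3.3, trended prior) was fitted to log2(value + 2) with group and sequencing run as terms, for the 16 control and NPC libraries and for the 88 day 10 libraries. Genes entered a fit when 8 or more of its libraries reached a value of 10, and p-values were adjusted by Benjamini-Hochberg over all genes tested. NKX2-2 was tested by exact two-sided permutation. Alternatives were other pseudocounts, no filter, TMM scaling, edgeR 4.0.16, DESeq2 1.42.0, no run term, a replicate block, only the libraries compared, and leaving out each library. edgeR and DESeq2 were run on recovered reads because the table holds no raw counts.

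The 9 genes and the lists were chosen with earlier results of these data known. From each list, called genes changed by at least 1.5-fold, at most 3 per direction, could be named, and the defining oligodendrocyte genes and other levels of a named gene were added after their values had been seen. Gene positions are from GENCODE 29 on GRCh38, and lengths are summed exons. A neighbour in an order of levels was called apart when its mean differed by more than the larger SD. Total reads per library limit precision, and the 9 genes had at most 53.6 mean reads per library. Some genes of the lists are not reported here by name.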

Additional observations from a re-analysis of the deposited data

Results flagged for a closer look

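Dixon's criterion for a distant library, applied here to untransformed counts, is met by chance in about 1 in 20 groups of normally distributed values. For these counts, some of a few reads, that rate need not hold. Among 108 values of a gene in a group of 8, 18 held a library far from the other 7 by this criterion. For OLIG1 these were 55.3 in acrylamide IC20/100 replicate 4 (others 8.13 to 24.6), 55.3 in chlorpyrifos IC20/100 replicate 6 (others 11.7 to 30.7), 54.5 in methyl mercury IC5 replicate 8 (others 6.39 to 27.1) and 34.0 in control replicate 7 (others 7.47 to 17.6). The same control library held 34.0 of GPR17 (others 11.9 to 17.5).

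GPR17 also had a distant library in valproic acid IC20/100 replicate 2 at 41.9 (others 4.51 to 20.5), in methyl mercury IC5 replicate 2 at 19.2 (others 2.17 to 10.2) and in chlorpyrifos IC5 replicate 4 at 2.84 (others 9.15 to 14.3). That last library was instead high for SOX10, at 11.4 (others 1.53 to 3.65). SOX10 stood out too in methyl mercury IC5 replicate 3 at 14.5 (others 2.34 to 7.61), in NPC replicate 3 at 72.2 (others 35.8 to 52.1) and in fluoxetine IC5 replicate 5 at 2.59 (others 6.60 to 9.98).

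MBP reached 86.6 in acrylamide IC20/100 replicate 4 (others 15.2 to 45.8), the library that was also high for OLIG1, and 61.3 in chlorpyrifos IC20/100 replicate 5 (others 12.1 to 31.0). PDGFRA reached 117 in methyl mercury IC20/100 replicate 3 (others 25.9 to 54.7), and NKX2-2 7.32 in valproic acid IC20/100 replicate 5 (others 2.05 to 3.69). CSPG4 was low at 16.0 in chlorpyrifos IC20/100 replicate 2 (others 27.7 to 36.5) and at 79.9 in NPC replicate 6 (others 91.2 to 99.7).

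The response of 5 genes differed between the concentrations of a compound by a direct test with limma. IC5 minus IC20/100 was -0.97 for OLIG2, 0.88 for PDGFRA, -1.26 for SOX10 and -0.92 for GPR17 in acrylamide. It was -0.75 for PMP2 in methyl mercury, and -0.71 for GPR17 and 1.99 for PMP2 in valproic acid. Among all genes 41.1% were called for acrylamide, 5.17% for methyl mercury and 17% for valproic acid. The calls of PDGFRA in acrylamide and GPR17 in valproic acid were lost when certain single libraries were left out. That of PMP2 in methyl mercury was lost when only the 16 libraries compared were fitted.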

How the results depend on the processing

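For the 45 calls of a gene in a comparison, 375 values under alternatives other than leaving out a library kept direction and call, 12 kept direction but lost the call, and 0 reversed. For 8 of the SOX10 calls, those of day 10, there was no value with only the 16 libraries compared, because SOX10 did not pass the filter on low values there. Leaving out 1 library ended 9 of the 45 calls. The number of genes called fell to 2 in chlorpyrifos IC5 against control, to 2 in methyl mercury IC5 against control and to 0 between the methyl mercury concentrations when only the 16 libraries compared were fitted. In each of the comparisons with control, 1 call was lost (CSPG4 in chlorpyrifos IC5 and GPR17 in methyl mercury IC5) and SOX10, also called in the fit of all day 10 libraries, was not tested. It was 5 by DESeq2 in methyl mercury IC20/100 against control, 1 with a pseudocount of 8, by edgeR and by DESeq2 in valproic acid IC20/100 against control, and 1 with a pseudocount of 0.5 or no filter between the valproic acid concentrations. The cause of the other changes was not tested. Over the libraries left out in turn, the number ran between 3 and 5 in methyl mercury IC20/100 against control (5 without its replicate 2), between 0 and 2 in valproic acid IC20/100 against control (2 without control replicate 7 or methyl mercury IC20/100 replicate 8) and between 1 and 3 between the valproic acid concentrations. With no filter on low values NKX2-2 was called higher in control than in NPC (1.17) and lower in chlorpyrifos IC5 (-0.99), fluoxetine IC5 (-1.31) and methyl mercury IC5 (-0.90).

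With run and group means removed, same-numbered libraries of 2 groups correlated with a median r of -0.067 to 0.038 and a lowest r of -0.087 to 0.006. For other pairs of libraries the median was -0.001 to 0.017. Chlorpyrifos IC5, fluoxetine IC20/100 and valproic acid IC5 share the run order of control. There an effect shared by replicate number is removed with run, so this check cannot exclude pairing. With the replicate block in place of run, 6 genes were called between control and NPC, and no call was lost, while GPR17 in methyl mercury IC20/100 was gained (-0.71, adjusted p = 0.0353). Depth limits NKX2-2 and SOX10 most, at 2.51 and 10.6 mean reads per library.

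Among all genes, fitting only the 16 libraries compared gave 351 called in place of 3185 in methyl mercury IC20/100 against control, 22 in place of 511 in valproic acid IC20/100 against control, and 0 in place of 12 in acrylamide IC20/100 against control. Between concentrations it gave 27 in place of 1042 for methyl mercury, 450 in place of 758 for fluoxetine and 2 in place of 10 for chlorpyrifos. Without the run term 329 genes were called in valproic acid IC20/100, 6 in acrylamide IC20/100 and 5 between the chlorpyrifos concentrations. Acrylamide IC20/100 had 7 with no filter and 25 by DESeq2, and the chlorpyrifos concentrations differed in 17 genes by edgeR and 63 by DESeq2.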

Other observations

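FABP3, a fatty acid binding protein of muscle and neurons and a relative of PMP2, was higher in fluoxetine IC5 than in control, with 78.9 ± 8.30 in fluoxetine IC5 and 17.4 ± 5.89 in control (SD, n = 8 each), a difference of 2.16 ± 0.24 (limma, adjusted p = 2.54e-11). It was also higher than in fluoxetine IC20/100, where it averaged 13.8 ± 4.43 (2.45 ± 0.24, adjusted p = 1.12e-12). PMP2 was lower than in control in both fluoxetine groups. NEU4, a sialidase of the precursor list, was lower in chlorpyrifos IC5 (2.33 ± 3.64) and fluoxetine IC20/100 (1.53 ± 1.70) than in control (7.07 ± 5.60), by -1.14 and -1.27, with adjusted p-values of 0.0481 and 0.0324 (limma). These NEU4 means all lie below the filter value of 10, so counting error is large, and NEU4 was not tested between control and NPC. Both adjusted p-values lie close to the threshold of 0.05, and NEU4 under other settings is not reported here.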
